A study of Mus musculus with 10 samples.

Results

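The 39 genes described here encode the enzymes and transporters that bring glucose into muscle, break it down to lactate, store it as glycogen and release it again. They were chosen by gene symbol for these roles, and all 39 were found among the 23337 genes of the deposited count tables. The study deleted E0, a conserved enhancer in the first intron of Ttn, the titin gene, in mice by CRISPR/Cas9. Bulk RNA-Seq covered the left ventricle (LV) and the skeletal muscle (SkM) of 2 WT and 3 E0del/+ mice, 10 libraries in all, made from poly(A) RNA without strand information. The mice were hybrids of C57BL/6 and 129SvEv, and E0del/+ mice carried the deletion on 1 of their Ttn alleles, since homozygous embryos die. The labels give no age. An age of 17 weeks is given in the study's description of an LV experiment with this deletion, whose group sizes differ from those here, so that it may not hold for these mice. Animals of both sexes were used in the study, and the muscle sampled and the sex of each mouse are not in the labels used here. The labels put WT 1 and E0del/+ 1 in batch 1, WT 2 and E0del/+ 2 in batch 2 and E0del/+ 3 alone in batch 3. Total gene counts were 13019392 and 11112647 in WT LV 1 and 2, 15361520, 11010021 and 11463197 in E0del/+ LV 1 to 3, 13892390 and 17484873 in WT SkM 1 and 2 and 16252062, 15009186 and 14208815 in E0del/+ SkM 1 to 3. A count of 3 in a library, the limit that a count of 0 allows, was worth 0.172 to 0.272 CPM (counts scaled to the total of the library), for counting error only.

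Glucose enters muscle through transporters of the plasma membrane, is trapped as glucose 6-phosphate by hexokinase, and is either stored as glycogen or split by the glycolytic enzymes to pyruvate. Pyruvate is reduced to lactate by lactate dehydrogenase, and monocarboxylate transporters carry lactate in and out of the cell. Fast skeletal fibres are known for their large glycogen stores and high glycolytic capacity, whereas the heart burns mainly fatty acids and also takes up lactate as a fuel. Most of these steps have several isoforms from separate genes, with one preferred in muscle.

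Before the results, several libraries stood apart. Ttn, the targeted gene, was at 6264 in WT LV 1, 6285, 3962 and 5677 in E0del/+ LV 1 to 3 and 8073 in WT LV 2, against 27344 and 21997 in WT SkM 1 and 2 and 23550.4, 24168 and 17029 in E0del/+ SkM 1 to 3, in normalised CPM. These values sum both alleles, and the deletion lies outside the exons, so the counts do not check the genotype labels. Fast fibre markers (10 genes, Myh4 the most abundant, none at 0 in all libraries) summed to 121 to 149 normalised CPM in 4 LV libraries and to 182292 to 239939 in SkM, but to 34490.4 in WT LV 2. Ventricle markers (10 genes, Myh6 the most abundant) summed to 56198 there, against 59721 to 82091 in the other LVs and 264 to 2587 in SkM. WT LV 2 thus held fast fibre transcripts beside those of the ventricle, and it is given apart from the other 4 LVs throughout. Adipocyte markers (7 genes, Cfd the most abundant, none at 0 in all libraries) were also higher there, with a sum of 323 normalised CPM against 53.9 to 89.5 in the other LVs, and their part in the values of WT LV 2 was not tested. Xist, expressed from the inactive X chromosome, was at 357 to 574 normalised CPM in the libraries of WT 1, E0del/+ 1 and E0del/+ 2 and at 0.476 to 4.20 in those of WT 2 and E0del/+ 3. The Y-linked gene Ddx3y was at 93.7 to 135 in the latter mice and at most 0.906 in the former, except for 14.1 in WT SkM 1, and the part of these differences in the results was not tested. Endothelial markers (5 genes, Cdh5 the most abundant) summed to 834 to 1373 normalised CPM in the LVs and to 145 to 264 in SkM. Their part in the members higher in LV was not tested. Expression in these tissues reflects all their cells, so fewer cells of a type and less RNA per cell cannot be told apart.

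The glycolytic and glycogen genes differed widely between the tissues, and mostly in favour of SkM. LV was compared with SkM in the 4 mice other than WT 2, with the mouse as a block, by edgeR's quasi-likelihood test over 13375 genes, and a gene was called at an adjusted p (Benjamini-Hochberg) under 0.05. Of the 39 members, 38 passed the filter on low counts. The exception was Eno1, listed at 0 in all 10 libraries. Of the 38, 36 were called, 10 higher in LV and 26 higher in SkM. Of all genes tested, 61.3% were called, 31.5% higher in LV and 29.8% higher in SkM. With an absolute log2 fold change of at least 1 as well, 31 members were called, 8 higher in LV and 23 higher in SkM, where the shares of all genes were 34.3%, 20.4% and 13.9%. The median log2 fold change (LV minus SkM) was -1.94 over the 38 members and 0.02 over all genes, and the median absolute change was 2.26 against 0.68. Without TMM scaling (trimmed mean of M-values), the median of all genes moved to 0.67 and that of the members to -1.29. Of the members, 12 were then called higher in LV and 23 higher in SkM, 10 and 20 of them with an absolute change of at least 1. The shares of all genes were 57.5% and 12.7%, and 36.0% and 6.93% with that change. With TMM scaling, members higher in SkM outnumbered those higher in LV in every role except glucose entry, and every role except the branch points also held a member higher in LV. In the lactate role, with 3 higher in SkM and 2 in LV, the order rests on Ldhd, which was called higher in LV without TMM scaling.

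**Figure D1:**
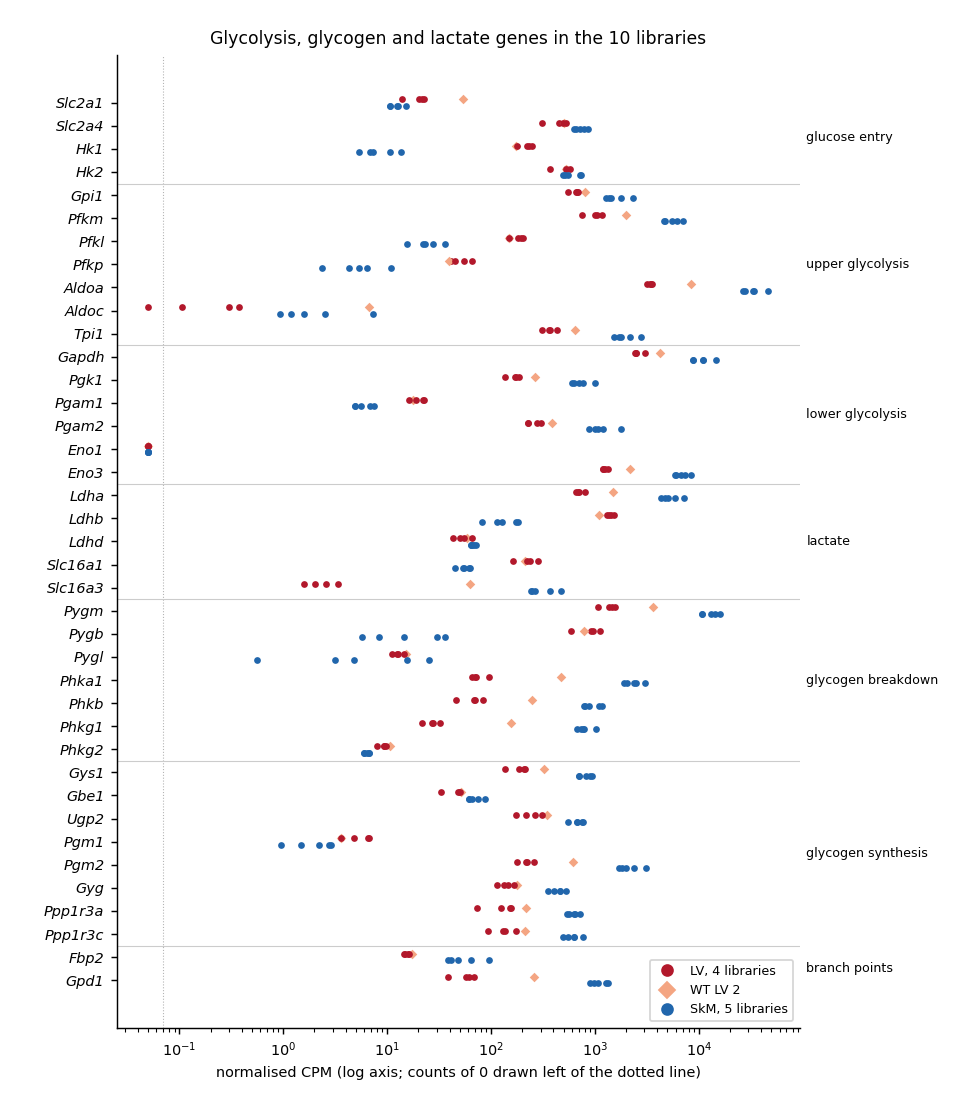
Normalised CPM of the 39 genes on a log axis, grouped by role, with 1 point per library: 4 LV libraries in dark red, WT LV 2 as pale diamonds and 5 SkM libraries in blue. Slc16a3 stands at 1.58 to 3.37 in the 4 LVs, at 63.4 in WT LV 2 and at 242 to 475 in SkM, and Eno1 is at 0 in all.

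**Figure D2:**
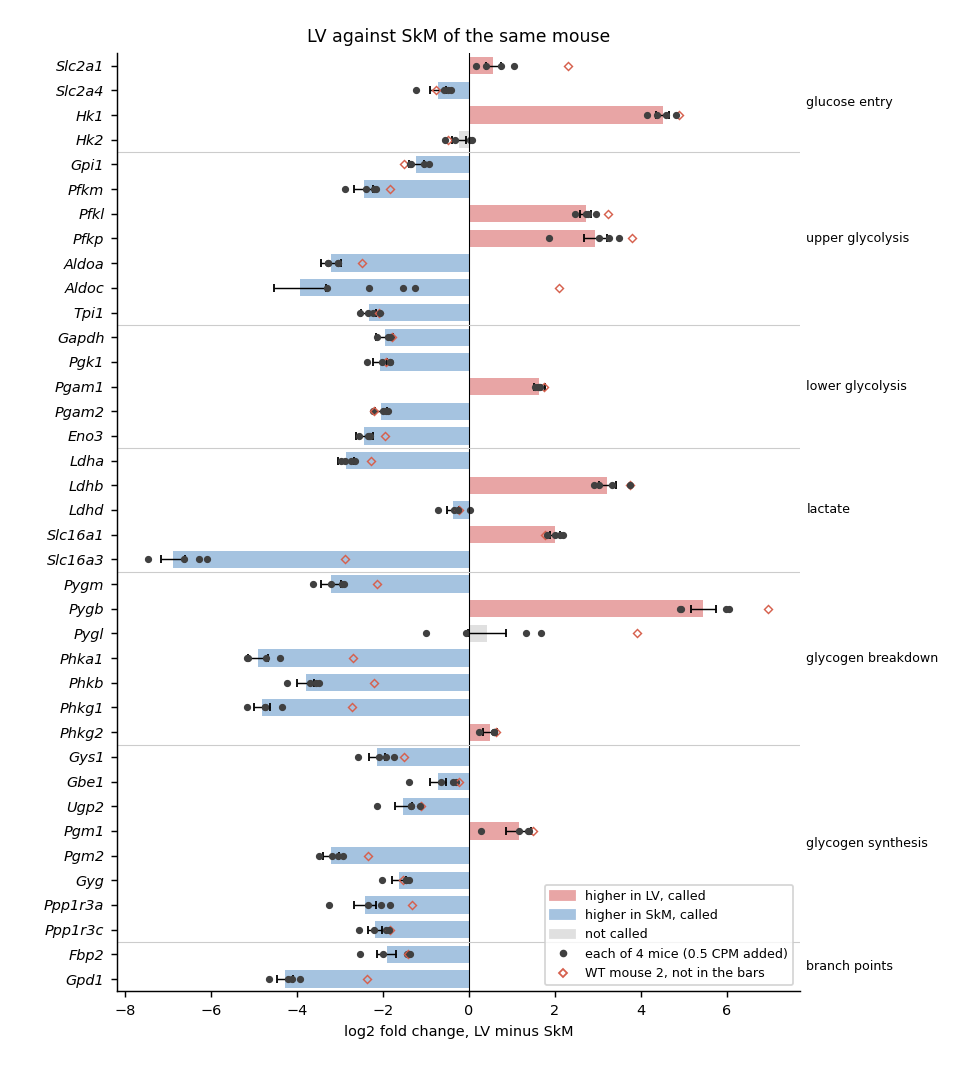
Log2 fold change of LV minus SkM for the 38 genes tested, as bars from edgeR over 4 mice. Standard errors were derived from edgeR's test statistic. Single mice are shown as dots and WT mouse 2, which is not in the bars, as open diamonds (0.5 CPM added for single mice). Bars run from -6.89 for Slc16a3 to 5.45 for Pygb, and grey bars mark Hk2 and Pygl, which were not called.

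Promoters of the lactate, phosphoglycerate mutase and phosphorylase pairs are shown, and that of Phka1 without a partner. The genes of each pair shown differed between the tissues in opposite directions. Other pairs that did so, such as Pfkm and Pfkl or Phkg1 and Phkg2, are not shown. Promoters of Pfkm, Pfkl, Phkg1 and Phkg2 held no CAGCTG, the muscle E-box searched below. RefSeq promoters (GRCm38.p6) were matched by symbol for 37 of the 39 members, and none was used for Slc2a4 and Gpd1. Each was searched on both strands over 300 bases, 250 before and 50 after the start. The muscle E-box CAGCTG was in promoters of 12 members, all among the 22 that had a promoter and were strongly higher in SkM, and in none of the 8 strongly higher in LV. It occurs in 16.3% of all 32851 promoters. The core of the hypoxia response element, ACGTG, was in 13 of those 22 and in 5 of those 8, and it occurs in 19.6% of all promoters. A member was counted when any of its promoters held the motif. Counted by promoter, CAGCTG was in 12 and ACGTG in 24 of the 48 promoters of the members. The MEF2 motif CTATTTATA was found for Ppp1r3a only and CTAAAAATA for none (0.429% and 0.517% of all promoters). The ERR motif AAGGTCA was found for Tpi1 and Eno1 (4.72%). The stretches of 250 bases before the start are those of Pgam2 at chr11:5803797-5804046 (minus strand), Pgam1 at chr19:41911621-41911870 (plus strand), Pygm at chr19:6384158-6384407 (plus strand), Pygb at chr2:150786546-150786795 (plus strand), Phka1 at chrX:102644247-102644496 (minus strand), Slc16a3 at chr11:120948817-120949066 (plus strand), Slc16a1 at chr3:104638414-104638663 (plus strand), Ldha, the first of its starts, at chr7:46845554-46845803 (plus strand) and Ldhb at chr6:142507958-142508207 (minus strand). They are printed 5′ to 3′ along the gene's strand, and capitals mark CAGCTG and ACGTG or its reverse complement CACGT, which overlap in CACGTG.
Pgam2: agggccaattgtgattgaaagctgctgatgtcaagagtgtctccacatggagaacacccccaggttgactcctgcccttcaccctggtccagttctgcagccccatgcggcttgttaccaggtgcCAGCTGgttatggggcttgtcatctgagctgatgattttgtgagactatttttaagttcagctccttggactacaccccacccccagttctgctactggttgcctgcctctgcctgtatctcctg
Pgam1: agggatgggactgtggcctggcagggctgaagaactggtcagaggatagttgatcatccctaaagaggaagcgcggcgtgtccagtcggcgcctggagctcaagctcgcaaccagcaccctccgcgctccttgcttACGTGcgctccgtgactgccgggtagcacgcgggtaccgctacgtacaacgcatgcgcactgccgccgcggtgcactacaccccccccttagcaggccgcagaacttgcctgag
Pygm: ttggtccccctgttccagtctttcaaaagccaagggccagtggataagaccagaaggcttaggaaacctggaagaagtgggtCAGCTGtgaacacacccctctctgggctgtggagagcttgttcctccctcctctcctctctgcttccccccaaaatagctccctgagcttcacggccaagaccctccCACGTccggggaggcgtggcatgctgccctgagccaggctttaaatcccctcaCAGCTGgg
Pygb: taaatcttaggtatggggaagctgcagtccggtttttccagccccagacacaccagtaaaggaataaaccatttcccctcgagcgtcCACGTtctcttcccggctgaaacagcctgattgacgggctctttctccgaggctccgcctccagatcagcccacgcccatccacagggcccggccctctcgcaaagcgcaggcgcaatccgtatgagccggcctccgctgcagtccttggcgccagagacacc
Phka1: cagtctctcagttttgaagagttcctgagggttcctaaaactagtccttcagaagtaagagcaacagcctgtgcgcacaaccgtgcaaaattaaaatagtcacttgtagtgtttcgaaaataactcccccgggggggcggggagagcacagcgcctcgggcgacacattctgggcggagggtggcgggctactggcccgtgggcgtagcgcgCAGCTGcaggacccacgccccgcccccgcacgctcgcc
Slc16a3: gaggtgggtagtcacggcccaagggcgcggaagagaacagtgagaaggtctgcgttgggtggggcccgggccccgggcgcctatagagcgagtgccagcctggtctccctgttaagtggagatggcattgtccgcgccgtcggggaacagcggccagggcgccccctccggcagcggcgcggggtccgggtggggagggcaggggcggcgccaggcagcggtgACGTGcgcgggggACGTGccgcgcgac
Slc16a1: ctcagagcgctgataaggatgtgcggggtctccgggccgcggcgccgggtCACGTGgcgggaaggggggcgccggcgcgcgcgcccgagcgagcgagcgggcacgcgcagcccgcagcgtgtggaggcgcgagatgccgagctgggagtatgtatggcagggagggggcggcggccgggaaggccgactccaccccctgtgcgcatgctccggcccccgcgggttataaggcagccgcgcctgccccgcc
Ldha: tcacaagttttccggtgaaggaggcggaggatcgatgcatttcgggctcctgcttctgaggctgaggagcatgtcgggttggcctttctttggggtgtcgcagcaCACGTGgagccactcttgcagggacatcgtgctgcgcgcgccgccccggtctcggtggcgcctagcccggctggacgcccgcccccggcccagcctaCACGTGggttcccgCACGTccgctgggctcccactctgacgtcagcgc
Ldhb: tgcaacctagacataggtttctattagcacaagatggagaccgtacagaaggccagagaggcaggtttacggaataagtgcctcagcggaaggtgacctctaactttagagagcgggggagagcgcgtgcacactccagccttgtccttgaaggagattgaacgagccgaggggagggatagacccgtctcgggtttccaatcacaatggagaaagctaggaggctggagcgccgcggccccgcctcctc

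In these stretches, CAGCTG began at position -125 from the start of Pgam2, at -38 from that of Phka1 and at -168 and -8 from that of Pygm. Pgam1, Pygb, Slc16a1, Slc16a3 and Ldha held ACGTG without CAGCTG, Pygm held both and Ldhb neither. Other forms of the E-box were not searched. A match is a description of these letters in this window, and binding was not measured here.

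Glucose entry and phosphorylation was the role with the fewest members higher in SkM, 1 of 4, beside 2 higher in LV. Slc2a4 encodes GLUT4, the insulin-responsive glucose transporter. It was at 450.2 in WT LV 1, 496, 309 and 525 in E0del/+ LV 1 to 3 and 502 in WT LV 2, against 631 and 858 in WT SkM 1 and 2 and 662, 726 and 781 in E0del/+ SkM 1 to 3, in normalised CPM. Every SkM library lay above every LV library, and the log2 fold change was -0.72 (SE 0.19, edgeR adjusted p = 0.0116), lower in LV in 4 of 4 mice. Slc2a1 encodes GLUT1, a transporter found in most cell types. It was at 20.3 in WT LV 1, 21.6, 14.05 and 22.4 in E0del/+ LV 1 to 3 and 54.3 in WT LV 2, against 15.2 and 10.6 in WT SkM 1 and 2 and 12.7, 12.4 and 10.7 in E0del/+ SkM 1 to 3. WT LV 2 was the highest of the 10 libraries, and the other LVs overlapped with SkM. The log2 fold change of Slc2a1 was 0.57 (SE 0.17, edgeR adjusted p = 0.0208), higher in LV in 4 of 4 mice. Without TMM scaling, the change of Slc2a4 was -0.07 and was not called, and that of Slc2a1 was 1.22. With WT 2 included, Slc2a1 changed by 0.91. Its call was lost when any of WT 1, E0del/+ 1 or E0del/+ 3 was left out (0.61, 0.51 and 0.42).

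The balance of the hexokinase isoforms differed between the tissues more than their sum did. Hk1, the housekeeping isoform, was at 247 in WT LV 1, 234, 177 and 220.0 in E0del/+ LV 1 to 3 and 172 in WT LV 2, against 13.5 and 5.40 in WT SkM 1 and 2 and 10.7, 6.83 and 7.32 in E0del/+ SkM 1 to 3. All LV libraries lay far above all SkM libraries, with a log2 fold change of 4.51 (SE 0.15, edgeR adjusted p = 7.59e-07), higher in LV in 4 of 4 mice. Hk2, the isoform typical of insulin-sensitive tissue, was at 529 in WT LV 1, 524, 374 and 574 in E0del/+ LV 1 to 3 and 531 in WT LV 2, against 519.8 and 742 in WT SkM 1 and 2 and 498, 549 and 716 in E0del/+ SkM 1 to 3. The tissues overlapped, and Hk2 was higher in LV in 2 of 4 mice, with a log2 fold change of -0.24 (SE 0.17, edgeR adjusted p = 0.259), which was not called. Without TMM scaling it turned to 0.42 and was called higher in LV (edgeR adjusted p = 0.0108). Summed per kb of exon, both hexokinases were higher in LV by 0.40 (range 0.08 to 0.66) on the log2 scale over the 4 mice, the only step of 18 with a higher sum in LV. On plain CPM without TMM, the difference was 1.009 (range 0.76 to 1.19).

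In the upper part of glycolysis, 5 of 7 members were higher in SkM and 2 in LV. Phosphofructokinase, the committed step of the pathway, divided by isoform. Pfkm, the muscle isoform, was at 1041 in WT LV 1, 1014, 757 and 1168 in E0del/+ LV 1 to 3 and 1985 in WT LV 2, against 4623 and 7074 in WT SkM 1 and 2 and 4727, 5581 and 6117 in E0del/+ SkM 1 to 3, with every SkM library above every LV library. Pfkl, the liver isoform, was at 203 in WT LV 1, 184, 149 and 194 in E0del/+ LV 1 to 3 and 149 in WT LV 2, against 36.3 and 15.5 in WT SkM 1 and 2 and 23.4, 22.0 and 27.8 in E0del/+ SkM 1 to 3, and here every LV library was the higher. Pfkp, the platelet isoform, was at 41.1 in WT LV 1, 54.9, 45.4 and 65.5 in E0del/+ LV 1 to 3 and 39.7 in WT LV 2, against 10.98 and 2.38 in WT SkM 1 and 2 and 6.35, 4.27 and 5.38 in E0del/+ SkM 1 to 3. The log2 fold changes were -2.45 (SE 0.22, edgeR adjusted p = 5.72e-05) for Pfkm, 2.71 (SE 0.12, edgeR adjusted p = 2.71e-06) for Pfkl and 2.94 (SE 0.27, edgeR adjusted p = 6.78e-05) for Pfkp, each in the same direction in 4 of 4 mice. Part of the exons of Pfkp (6.92% of their length) overlaps with those of Pitrm1, and counting without strand could assign such reads to either.

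Aldoa, the muscle aldolase that splits fructose 1,6-bisphosphate, had the highest count of all members in every library. It was at 3198 in WT LV 1, 3401, 3462 and 3533 in E0del/+ LV 1 to 3 and 8390.5 in WT LV 2, against 26584 and 46957 in WT SkM 1 and 2 and 27939.8, 33511 and 34286 in E0del/+ SkM 1 to 3. It ranked 13 to 18 among all genes in the 4 LVs, 5 in WT LV 2 and 4 to 5 in SkM. Its log2 fold change was -3.20 (SE 0.23, edgeR adjusted p = 2.33e-05), lower in LV in 4 of 4 mice. Aldoc, the brain aldolase, was at 0.302 in WT LV 1, 0.106, 0 and 0.375 in E0del/+ LV 1 to 3 and 6.69 in WT LV 2, against 7.40 and 1.19 in WT SkM 1 and 2 and 2.52, 0.939 and 1.59 in E0del/+ SkM 1 to 3, and the 4 LVs were near the limit of detection. It was lower in LV in 4 of 4 mice with a log2 fold change of -3.93 (SE 0.60, edgeR adjusted p = 0.000963), and WT LV 2 lay above 4 of 5 SkM libraries. The fold rests on counts of 5 in WT LV 1 and 2, 0 and 5 in E0del/+ LV 1 to 3, so its size is uncertain. With WT 2 included, the change was -2.57 and was not called. Gpi1, which isomerises glucose 6-phosphate, was at 553 to 692 in the 4 LVs, 810.5 in WT LV 2 and 1276 to 2321 in SkM, and Tpi1, which interconverts the triose phosphates, at 309 to 431 in the 4 LVs, 646 in WT LV 2 and 1524 to 2774 in SkM. Their log2 fold changes were -1.22 (SE 0.17) and -2.33 (SE 0.17), both lower in LV in 4 of 4 mice, and that of Gpi1 was -0.57 without TMM scaling.

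From glyceraldehyde 3-phosphate to phosphoenolpyruvate, 4 of 5 members tested were higher in SkM. Gapdh, the dehydrogenase that makes NADH, was at 2458 to 3029 in the 4 LVs, 4218 in WT LV 2 and 8837 to 14557 in SkM, and Pgk1, the first step that yields ATP, at 135 to 188 in the 4 LVs, 264 in WT LV 2 and 605 to 1013 in SkM. Their log2 fold changes were -1.96 (SE 0.20) and -2.06 (SE 0.16). The forms of phosphoglycerate mutase differed in opposite directions. Pgam2, the muscle form, was at 229 in WT LV 1, 228, 276 and 302 in E0del/+ LV 1 to 3 and 388 in WT LV 2, against 1071 and 1802 in WT SkM 1 and 2 and 874, 1013 and 1199 in E0del/+ SkM 1 to 3. Pgam1, the form of brain and most other tissues, was at 21.9 in WT LV 1, 18.8, 16.4 and 22.4 in E0del/+ LV 1 to 3 and 17.7 in WT LV 2, against 6.91 and 4.92 in WT SkM 1 and 2 and 5.63, 4.95 and 7.41 in E0del/+ SkM 1 to 3. SkM libraries were all above LV libraries for Pgam2 and all below for Pgam1, with log2 fold changes of -2.05 (SE 0.15, edgeR adjusted p = 2.03e-05) and 1.64 (SE 0.13, edgeR adjusted p = 3.25e-05), each the same way in 4 of 4 mice. Eno3, the muscle enolase, was at 1199 in WT LV 1, 1194, 1263 and 1336 in E0del/+ LV 1 to 3 and 2204 in WT LV 2, against 6094 and 8519 in WT SkM 1 and 2 and 5931, 7442 and 6743 in E0del/+ SkM 1 to 3. Its log2 fold change was -2.43 (SE 0.19, edgeR adjusted p = 3.09e-05), lower in LV in 4 of 4 mice. Eno1, the ubiquitous enolase, was listed at 0 in every library, so no fold was computed, and 25.3% of its 50-base stretches also occur in the near-identical copy Eno1b.

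Several of these values are uncertain, because reads could be shared with copies elsewhere. Of the 50-base stretches of a gene's transcripts, those also found in another gene made up 53.9% for Pgk1, 40.2% for Ldhd, 36.2% for Pgam1, 25.1% for Gapdh, 20.99% for Ldhb, 19.2% for Phkg2, 15.8% for Gpi1, 12.2% for the gene listed as Pgm2 and 11.1% for Phkg1, and 26.0% for Eno1. These 10 were the members over 10%. How reads with several positions were counted is not given in the sources used here.

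Lactate dehydrogenase differed by isoform. Ldha (chr7:46845804-46855627, plus strand, mm10) encodes the subunit prevalent in fast muscle, which favours the reduction of pyruvate to lactate. It was at 700.0 in WT LV 1, 693, 653 and 802 in E0del/+ LV 1 to 3 and 1512 in WT LV 2, against 4716 and 7288 in WT SkM 1 and 2 and 4329, 5113 and 5887 in E0del/+ SkM 1 to 3. Ldhb (chr6:142490249-142507943, minus strand) encodes the heart subunit, which favours the oxidation of lactate. It was at 1301 in WT LV 1, 1436, 1369 and 1541 in E0del/+ LV 1 to 3 and 1109 in WT LV 2, against 128 and 82.7 in WT SkM 1 and 2 and 176, 180.5 and 115 in E0del/+ SkM 1 to 3. No LV library reached the lowest SkM library for Ldha, nor any SkM library the lowest LV library for Ldhb. The log2 fold changes were -2.85 (SE 0.19, edgeR adjusted p = 1.42e-05) for Ldha and 3.22 (SE 0.20, edgeR adjusted p = 1.08e-05) for Ldhb, in 4 of 4 mice each. Ldha made up 26.4% in WT LV 1, 24.4%, 24.2% and 25.8% in E0del/+ LV 1 to 3 and 47.7% in WT LV 2, against 96.1% and 98.3% in WT SkM 1 and 2 and 94.3%, 95.0% and 97.2% in E0del/+ SkM 1 to 3, of the CPM per kb of both genes. The sum of both subunit genes per kb differed less, with a log2 difference of -0.89 (range -0.99 to -0.69), lower in LV in 4 of 4 mice. On plain CPM without TMM it was -0.28 (range -0.42 to -0.15).

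The lactate transporters differed between the tissues in opposite directions. Slc16a3 (chr11:120948484-120959000, plus strand) encodes MCT4, a low-affinity carrier known for lactate export from glycolytic fibres. It was at 2.60 in WT LV 1, 2.01, 3.37 and 1.58 in E0del/+ LV 1 to 3 and 63.4 in WT LV 2, against 242 and 475 in WT SkM 1 and 2 and 248, 263 and 366 in E0del/+ SkM 1 to 3. The 4 LVs were low and all SkM libraries far above them, with a ratio of 134 of the mean of the 5 SkM libraries over that of the 4 LVs. Slc16a1, which encodes MCT1, a higher-affinity carrier known for lactate uptake in heart and oxidative fibres, was at 236 in WT LV 1, 222, 162 and 285 in E0del/+ LV 1 to 3 and 213 in WT LV 2, against 53.6 and 61.7 in WT SkM 1 and 2 and 55.0, 45.4 and 62.3 in E0del/+ SkM 1 to 3. All LV libraries were above all SkM libraries. The log2 fold changes were -6.89 (SE 0.28, edgeR adjusted p = 1.56e-06) and 2.00 (SE 0.12, edgeR adjusted p = 1.09e-05), each in the same direction in 4 of 4 mice. Ldhd, the mitochondrial D-lactate dehydrogenase, was at 43.4 to 65.5 in the 4 LVs, 59.5 in WT LV 2 and 63.8 to 72.0 in SkM, and its log2 fold change of -0.37 (SE 0.14, edgeR adjusted p = 0.0494), lower in LV in 3 of 4 mice, was at the edge of the threshold. Without TMM scaling it turned to 0.28 and was called in the opposite direction, higher in LV (edgeR adjusted p = 0.0481). It lost the call when WT 1, E0del/+ 1 or E0del/+ 2 was left out (-0.39, -0.40 and -0.23), in DESeq2's Wald test (-0.38) and under both other filters (-0.36 and -0.32).

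**Figure D3:**
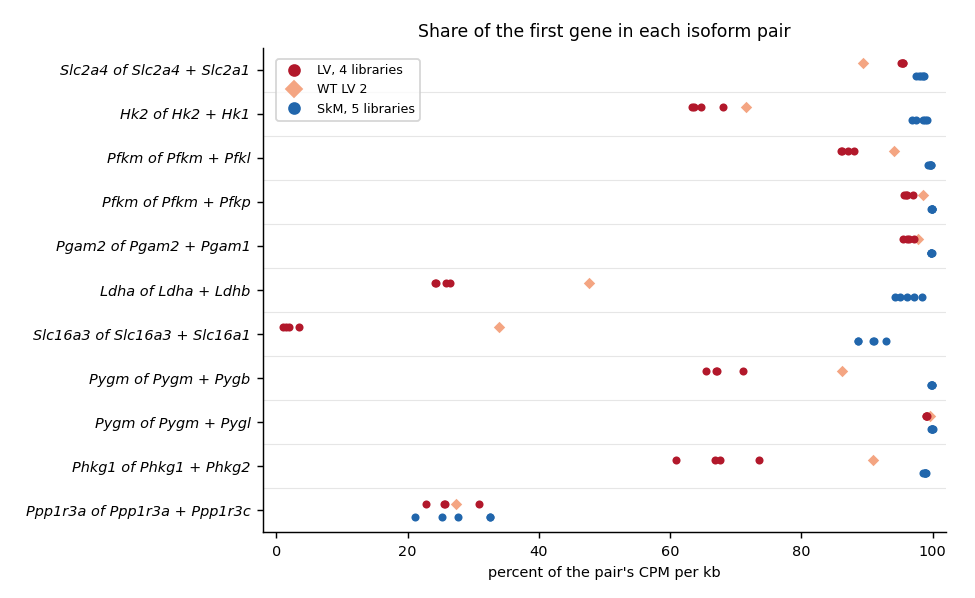
Percent that the first gene of each isoform pair takes of the pair's CPM per kb, with 1 point per library (LV dark red, WT LV 2 pale diamonds, SkM blue). Ldha takes 24.2% to 26.4% in the 4 LVs, 47.7% in WT LV 2 and 94.3% to 98.3% in SkM.

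Genes of glycogen breakdown gave 4 members higher in SkM, 2 higher in LV and 1 not called. Pygm, the muscle glycogen phosphorylase, was at 1379 in WT LV 1, 1448, 1070.1 and 1560.3 in E0del/+ LV 1 to 3 and 3659 in WT LV 2, against 10641 and 16133 in WT SkM 1 and 2 and 10867, 13162 and 14417 in E0del/+ SkM 1 to 3. Pygb, the brain isoform, was at 913 in WT LV 1, 960.3, 587 and 1111 in E0del/+ LV 1 to 3 and 787 in WT LV 2, against 29.9 and 5.79 in WT SkM 1 and 2 and 14.7, 8.37 and 36.1 in E0del/+ SkM 1 to 3. The tissues were fully separated for both genes, in opposite directions, with log2 fold changes of -3.21 (SE 0.24, edgeR adjusted p = 2.49e-05) and 5.45 (SE 0.29, edgeR adjusted p = 5.31e-06) in 4 of 4 mice each. Pygl, the liver isoform, was at 12.3 in WT LV 1, 12.7, 11.3 and 14.7 in E0del/+ LV 1 to 3 and 15.2 in WT LV 2, against 25.3 and 0.555 in WT SkM 1 and 2 and 4.76, 3.16 and 15.5 in E0del/+ SkM 1 to 3. Its SkM libraries spread from 0.555 to 25.3, a range that enclosed the LVs, and its log2 fold change of 0.41 (SE 0.44, edgeR adjusted p = 0.447) was not called, with 2 of 4 mice higher in LV.

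Phosphorylase kinase, which switches glycogen phosphorylase on in response to calcium and hormones, was higher in SkM in 3 of the 4 subunit genes among the members. The regulatory subunit gene Phka1 was at 72.2 in WT LV 1, 96.6, 66.3 and 70.2 in E0del/+ LV 1 to 3 and 472 in WT LV 2, against 1919 and 3058 in WT SkM 1 and 2 and 2057, 2397 and 2476 in E0del/+ SkM 1 to 3. The regulatory subunit gene Phkb was at 46.4 to 83.4 in the 4 LVs, 249.6 in WT LV 2 and 794 to 1163 in SkM. The muscle catalytic subunit gene Phkg1 was at 27.1 in WT LV 1, 32.5, 28.0 and 21.8 in E0del/+ LV 1 to 3 and 155 in WT LV 2, against 744 and 1031 in WT SkM 1 and 2 and 671, 765 and 794 in E0del/+ SkM 1 to 3. WT LV 2 was between the other LVs and SkM for all of these. Log2 fold changes were -4.91 (SE 0.23, edgeR adjusted p = 2.79e-06) for Phka1, -3.80 (SE 0.20, edgeR adjusted p = 4.81e-06) for Phkb and -4.82 (SE 0.20, edgeR adjusted p = 1.6e-06) for Phkg1, lower in LV in 4 of 4 mice. The catalytic subunit gene Phkg2, known from liver and testis, was at 9.31 in WT LV 1, 8.04, 9.26 and 9.68 in E0del/+ LV 1 to 3 and 10.7 in WT LV 2, against 6.02 and 6.74 in WT SkM 1 and 2 and 6.71, 5.98 and 6.35 in E0del/+ SkM 1 to 3. It was higher in LV in 4 of 4 mice, by 0.49 (SE 0.16, edgeR adjusted p = 0.0306) and by 1.14 without TMM scaling, a call lost in DESeq2's Wald test (0.47) and when WT 1, E0del/+ 2 or E0del/+ 3 was left out (0.43, 0.47 and 0.46). Exons of Phkg2 overlap with those of Gm166 over 46.9% of their length and exons of Phkg1 with those of Sumf2 over 21.9%, so both values are uncertain.

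For glycogen synthesis, 7 of 8 members were higher in SkM. Gys1, the muscle glycogen synthase, was at 137 to 212 in the 4 LVs, 326 in WT LV 2 and 702 to 933 in SkM, Gyg, the glycogenin that primes the chain, at 114 to 166 in the 4 LVs, 179.8 in WT LV 2 and 353 to 524 in SkM, and Ugp2, which makes UDP-glucose, at 176 to 309 in the 4 LVs, 346 in WT LV 2 and 551 to 777 in SkM. Gbe1, the branching enzyme, was at 33.4 to 50.4 in the 4 LVs, 51.7 in WT LV 2 and 60.9 to 88.1 in SkM. SkM lay above the 4 LVs for each of them. Their log2 fold changes were -2.13 (SE 0.19), -1.63 (SE 0.16), -1.53 (SE 0.20) and -0.72 (SE 0.19), lower in LV in 4 of 4 mice, and that of Gbe1 was -0.47 without E0del/+ 2. Without TMM scaling, Gbe1 was at -0.07 and not called, Gyg at -0.98 and Ugp2 at -0.88. Phosphoglucomutase interconverts glucose 1-phosphate and glucose 6-phosphate, and its 2 rows carry symbols that differ from those of RefSeq. The row listed as Pgm2 (chr4:99929451-99987294) lies at the gene that RefSeq calls Pgm1, and was at 178 to 261 in the 4 LVs, 611 in WT LV 2 and 1715 to 3124 in SkM. The row listed as Pgm1 (chr5:64092950-64128158) lies at RefSeq's Pgm2, and was at 3.60 to 6.77 in the 4 LVs, 3.58 in WT LV 2 and 0.952 to 2.88 in SkM. The former was lower in LV, with a log2 fold change of -3.21 (SE 0.18, edgeR adjusted p = 7.81e-06), and the latter higher, with 1.15 (SE 0.29, edgeR adjusted p = 0.00993) and 1.81 without TMM scaling, in 4 of 4 mice each.

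The targeting subunits bring protein phosphatase 1 to glycogen, where it activates the synthase. Ppp1r3a, the striated muscle subunit, was at 154 in WT LV 1, 126, 73.8 and 157 in E0del/+ LV 1 to 3 and 216 in WT LV 2, against 635 and 545 in WT SkM 1 and 2 and 644, 713 and 562 in E0del/+ SkM 1 to 3. Ppp1r3c, a subunit of wider expression, was at 129.7 in WT LV 1, 137, 93.8 and 172 in E0del/+ LV 1 to 3 and 215 in WT LV 2, against 495 and 766 in WT SkM 1 and 2 and 633, 556 and 627 in E0del/+ SkM 1 to 3. Both were higher in every SkM library than in any LV library, with log2 fold changes of -2.41 (SE 0.26, edgeR adjusted p = 0.000149) and -2.18 (SE 0.17, edgeR adjusted p = 3.41e-05) in 4 of 4 mice. At the branch points, Fbp2, the muscle fructose bisphosphatase, was at 14.8 in WT LV 1, 15.9, 16.3 and 14.6 in E0del/+ LV 1 to 3 and 17.49 in WT LV 2, against 41.0 and 47.7 in WT SkM 1 and 2 and 65.0, 96.7 and 38.3 in E0del/+ SkM 1 to 3. Gpd1, the cytosolic glycerol 3-phosphate dehydrogenase, which passes electrons from NADH into the glycerol phosphate shuttle, was at 61.1 in WT LV 1, 57.7, 38.5 and 68.6 in E0del/+ LV 1 to 3 and 259 in WT LV 2, against 1068 and 1345 in WT SkM 1 and 2 and 892, 974 and 1285 in E0del/+ SkM 1 to 3. Both lay above all LVs in SkM, with log2 fold changes of -1.92 (SE 0.21, edgeR adjusted p = 0.000176) and -4.28 (SE 0.19, edgeR adjusted p = 2.51e-06), lower in LV in 4 of 4 mice, and that of Fbp2 was -1.26 without TMM scaling.

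Ratios within a library do not depend on how libraries are scaled. Of 13 isoform pairs, 11 gave a ratio in all 8 libraries, and 10 of these were lower in LV in 4 of 4 mice. The log2 ratio of CPM per kb (LV minus SkM, mean ± SD, n = 4) was -8.96 ± 0.81 for Slc16a3 over Slc16a1, -8.68 ± 0.84 for Pygm over Pygb, -6.07 ± 0.41 for Ldha over Ldhb, -5.42 ± 0.99 for Pfkm over Pfkp, -5.31 ± 0.49 for Phkg1 over Phkg2, -5.17 ± 0.41 for Pfkm over Pfkl and -4.75 ± 0.57 for Hk2 over Hk1. It was -3.71 ± 1.53 for Pygm over Pygl, -3.69 ± 0.14 for Pgam2 over Pgam1 and -1.29 ± 0.32 for Slc2a4 over Slc2a1. An exact permutation of signs within mice gave a two-sided p of 0.13 for each of the 10, the smallest that 4 mice allow, and 0.138 after adjustment over the 11 pairs, so none could pass 0.05. Ppp1r3a over Ppp1r3c differed by -0.23 ± 0.32 and was lower in LV in 3 of 4 mice (exact p = 0.25). No ratio was possible for Eno3 over Eno1, and Aldoa over Aldoc had none in E0del/+ LV 2, where Aldoc was at 0. In the other mice Aldoa over Aldoc differed by 1.56 in WT 1 and 1.54 in E0del/+ 1, higher in LV, and by -1.20 in E0del/+ 3, lower in LV. These rest on Aldoc counts of 5, 2 and 5 in the LV libraries.

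The muscle isoforms still led in LV in most pairs. On the per kb scale, Hk2 took 63.4% to 68.1% of both hexokinases in the 4 LVs and 96.9% to 99.1% in SkM. Pygm took 65.5% to 71.1% of Pygm and Pygb in LV and at least 99.8% in SkM, and Phkg1 60.8% to 73.6% of its pair in LV and at least 98.6% in SkM. Pfkm took at least 86.1% of Pfkm and Pfkl, and Pgam2 and Slc2a4 at least 95.5% and 95.2% of their pairs, in the 4 LVs and in SkM. Slc16a3 made up 1.86% in WT LV 1, 1.53%, 3.44% and 0.942% in E0del/+ LV 1 to 3 and 33.9% in WT LV 2, against 88.6% and 93.0% in WT SkM 1 and 2 and 88.6%, 90.9% and 91.0% in E0del/+ SkM 1 to 3, of both transporters. Lactate dehydrogenase and the monocarboxylate transporters were thus the pairs in which the leading gene itself changed between LV and SkM. For Ppp1r3a, the share lay between 21.1% and 32.5% in all 10 libraries, without separation of the tissues.

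Summing isoforms per kb gave 18 steps, of which 17 were lower in LV than in SkM in 4 of 4 mice. The largest mean log2 difference was that of the catalytic subunits of phosphorylase kinase, -4.22 (range -4.48 to -3.95), followed by aldolase, -3.16 (range -3.28 to -3.04), and phosphoglucomutase, -3.13 (range -3.45 to -2.92). Glycogen phosphorylase differed by -2.60 (range -3.12 to -2.32), enolase (Eno3 alone) by -2.39 (range -2.56 to -2.31) and phosphofructokinase by -2.17 (range -2.61 to -1.91). The smallest were glucose transport, -0.64 (range -1.19 to -0.38), and glycogen branching, -0.68 (range -1.40 to -0.29). On plain CPM without TMM, chosen as an alternative after seeing the data, 15 steps remained lower in LV in 4 of 4 mice, while glucose transport was at -0.03 (range -0.34 to 0.15) and branching at -0.07 (range -0.55 to 0.23). Together the 39 genes held 2.14% in WT LV 1, 2.13%, 2.13% and 2.24% in E0del/+ LV 1 to 3 and 3.58% in WT LV 2, against 6.84% and 8.95% in WT SkM 1 and 2 and 6.66%, 7.26% and 7.82% in E0del/+ SkM 1 to 3, of all gene counts. The share was lower in LV: LV minus SkM was -4.99 ± 0.471 percentage points (SD, n = 4; lower in 4 of 4 mice; exact permutation of signs, two-sided p = 0.13, the smallest possible). Without the 10 most abundant genes of each library it was -2.81 percentage points. Those genes included 0 members in the 4 LVs, 1 in WT LV 2 and 1 to 3 in the SkM libraries.

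The SkM libraries differed among themselves about as much for the members as for other genes. The SD of log2 CPM over the 5 SkM libraries (0.5 CPM added) had a median of 0.27 over the 38 members and 0.25 over the 13375 genes tested, and over the 4 LVs 0.24 and 0.20. WT SkM 2 was the highest of the SkM libraries for 22 of 38 members, whereas 32.4% of all genes were highest there. The 22 members included Aldoa, Gapdh, Pfkm, Ldha, Pygm and Slc16a3. The same library was the lowest for 11 members, among them Hk1, Pfkl and Ldhb, and 30.3% of all genes were lowest there. The median deviation of WT SkM 2 from the SkM mean was 0.25 over the members, while that of all genes was near 0. In LV, E0del/+ LV 3 was the highest for 31 of 38 members (31.7% of all genes) and E0del/+ LV 2 the lowest for 28 of 38 (36.5% of all genes), with median deviations of 0.21 and -0.28. These counts depend on the scaling. On plain CPM without TMM, chosen as an alternative after seeing the data, E0del/+ LV 3 was the highest for 18 members (15.0% of all genes), E0del/+ LV 2 the lowest for 24 (20.7%) and WT SkM 2 the highest for 16 (17.6%). The median deviations of the members were then 0.09, -0.13 and 0.09, and those of all genes -0.10, 0.14 and -0.15.

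The widest spread of members in SkM, as the SD on the log2 scale, was 1.82 for Pygl, 1.10 for Pygb, 0.98 for Aldoc, 0.73 for Pfkp and 0.55 for Fbp2. Pygl and Pygb were highest in WT SkM 1 and E0del/+ SkM 3 and lowest in WT SkM 2. The adipocyte markers, 6 of 7 higher in SkM than in LV, summed to 1418 and 33.6 normalised CPM in WT SkM 1 and 2 and to 387, 228 and 1751 in E0del/+ SkM 1 to 3, with the same libraries high and low. Their part in Pygl and Pygb was not tested. Slow fibre markers (5 genes, Myh7 the most abundant, none at 0 in all libraries) summed to 1154 and 139.7 normalised CPM in WT SkM 1 and 2 and to 1669, 2418 and 259.5 in E0del/+ SkM 1 to 3. Ldhb was also lower in WT SkM 2 and E0del/+ SkM 3, at 82.7 and 115 normalised CPM against 128 to 180.5 in the other 3, and Ppp1r3a was at 545 and 562 against 635 to 713. Slc16a3 and Gpi1 were higher in that pair, at 475 and 366 against 242 to 263 and at 2321 and 1771 against 1276 to 1437. These genes were picked after their values were seen. Both libraries also have Xist under 1 normalised CPM, so what moves with slow fibre markers and what moves with Xist cannot be told apart here, and the part of either was not tested.

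**Figure D4:**
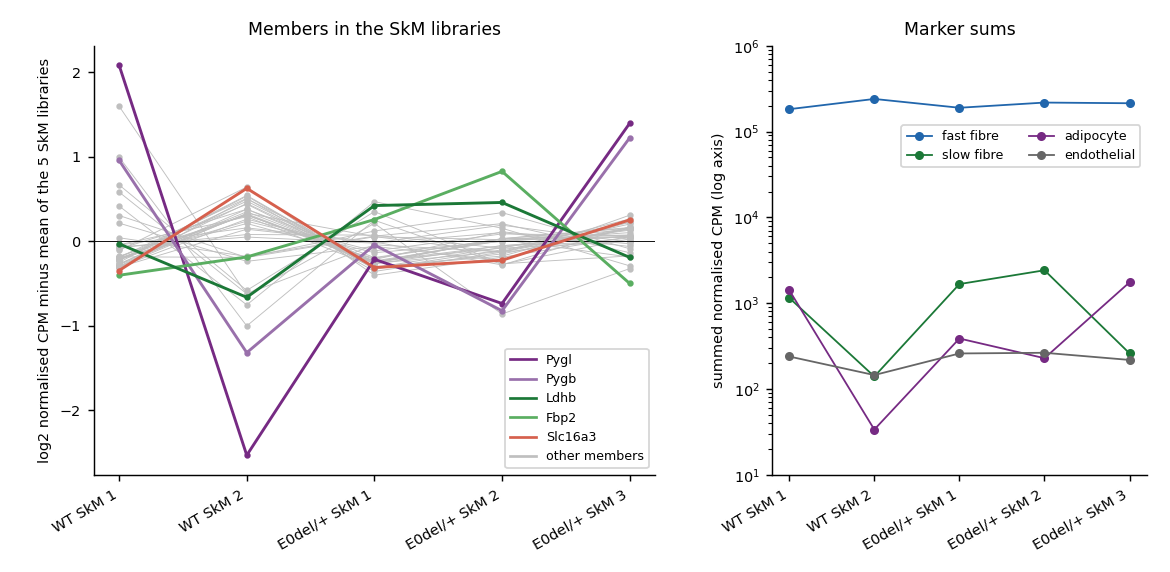
Left, log2 normalised CPM of each member minus its mean over the 5 SkM libraries, with lines joining the values of a gene. Right, summed normalised CPM of marker lists on a log axis: adipocyte markers run from 33.6 in WT SkM 2 to 1751 in E0del/+ SkM 3, and Pygb deviates by -1.32 and 1.22 in these libraries.

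In WT LV 2, most members took values between those of the tissues. Of the 23 members strongly higher in SkM, 22 were above all other LVs on plain CPM, the exception being Fbp2, and of the 8 strongly higher in LV, 6 were below all other LVs. Toward E0del/+ SkM 3, the 23 members had gone a median of 24.3% of the way from the mean of the other LVs (quartiles 22.9% and 27.5%), beside 22.2% for the 10 fast fibre markers. Toward WT SkM 1, WT SkM 2, E0del/+ SkM 1 and E0del/+ SkM 2, the medians were 28.1%, 21.4%, 33.1% and 30.4% for the members, beside 24.8%, 19.6%, 25.2% and 24.1% for the fast fibre markers. Pygm was at 3659 normalised CPM in this library, 2.47 times the mean of the other LVs on plain CPM, and Slc16a3 at 63.4, which was 23.8 times that mean. Slc2a1 and Aldoc were above both tissues on plain CPM, at 2.56 and 32.6 times the mean of the other LVs. For Aldoc that mean was 0.238 CPM, near the limit of detection, so the size of its ratio is uncertain. Slc2a1 stood at 54.3 normalised CPM there, above 10.6 to 22.4 in all other libraries.

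The genotypes were compared within each tissue to find changes of these genes with the E0 deletion. In LV, edgeR's quasi-likelihood test called 0 of 13420 genes (0%) and 0 of the 37 members tested, where 564 genes (4.20%) and 9 members had an unadjusted p under 0.05. DESeq2's Wald test called 12 genes and 0 members, and with the batch as a block edgeR called 5 genes and 0 members. The 9 members were Slc2a1, Pfkp, Slc16a3, Pygm, Phka1, Phkb, Phkg1, Pgm2 and Gpd1. Slc16a3 was at 2.60 and 63.4 normalised CPM in WT LV 1 and 2 and at 2.01, 3.37 and 1.58 in E0del/+ LV 1 to 3. Its log2 fold change (E0del/+ minus WT) was -3.82 (SE 1.00) with WT LV 2 and -0.17 (SE 0.50) without it, and the ratio of E0del/+ over WT was 0.773 within batch 1 and 0.0531 within batch 2. For Phka1 the values were -1.82 (SE 0.61) and 0.10 (SE 0.27), for Phkg1 -1.74 (SE 0.57) and 0.01 (SE 0.26), and for Gpd1 -1.55 (SE 0.50) and -0.16 (SE 0.29). Their ratios of E0del/+ over WT were 1.34 and 0.14 for Phka1, 1.20 and 0.18 for Phkg1 and 0.945 and 0.149 for Gpd1, within batch 1 and batch 2. Without WT LV 2, 0 of 13890 genes (0%) and 0 members were called, and 104 genes (0.749%) and 0 members had an unadjusted p under 0.05, where WT was represented by 1 library. The fit without WT LV 1 left WT LV 2 as the lone WT library, and its counts of called genes and members are listed only with the processing alternatives below.

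Pfkp was the member of the 9 with a higher value in E0del/+. It was at 41.1 and 39.7 normalised CPM in the WT LVs and at 54.9, 45.4 and 65.5 in the E0del/+ LVs, a log2 fold change of 0.44 (SE 0.18) with WT LV 2 (unadjusted p = 0.0397, edgeR adjusted p = 0.997) and 0.42 (SE 0.25) without it (unadjusted p = 0.126). Taken by batch, the ratio of E0del/+ over WT was 1.34 within batch 1 and 1.15 within batch 2. Pfkp and Ldhb were the members whose LV values did not overlap between genotypes, both higher in E0del/+, and 16.4% of all genes did not overlap. Ldhb was at 1301 and 1109 in WT and at 1436, 1369 and 1541 in E0del/+, and the ratio of E0del/+ over WT was 1.10 within batch 1 and 1.24 within batch 2. The median ratio of E0del/+ to WT over the members was 1.013 in batch 1 and 0.583 in batch 2, which holds WT LV 2, beside 1.009 and 0.986 over all genes. Xist was at 3.11 in WT LV 2 and 574 in E0del/+ LV 2, the libraries of batch 2.

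In SkM, edgeR's quasi-likelihood test called 0 of 13154 genes (0%) and 0 of 38 members, and 114 genes (0.867%) and 0 members had an unadjusted p under 0.05. DESeq2's Wald test called 0 genes, and with the batch as a block edgeR called 1 gene and 0 members. Median log2 fold changes were -0.07 over the members and -0.01 over all genes. Gbe1 was the member without overlap between the genotypes, at 61.2 and 60.9 normalised CPM in WT and 75.7, 88.1 and 65.4 in E0del/+, where 12.0% of all genes did not overlap. Its log2 fold change was 0.35 (SE 0.16) with an edgeR adjusted p of 1.00, higher in 3 of 3 E0del/+ mice than in either WT mouse, and the ratio of E0del/+ over WT was 1.24 within batch 1 and 1.45 within batch 2. Ldhb was at 128 and 82.7 in WT and 176, 180.5 and 115 in E0del/+, with overlap, a log2 fold change of 0.60 (SE 0.30), and the ratio of E0del/+ over WT was 1.37 within batch 1 and 2.18 within batch 2. Among other members with overlap, the log2 fold change was 0.62 (SE 0.39) for Fbp2 and -0.45 (SE 0.26) for Pgam2, with ratios of E0del/+ over WT of 1.59 and 2.03 for Fbp2 and 0.816 and 0.562 for Pgam2 within batch 1 and batch 2. Aldoc and Pygl had log2 fold changes of -1.33 (SE 0.84) and -0.73 (SE 1.35). For Pygl the ratio of E0del/+ over WT was 0.188 within batch 1 and 5.69 within batch 2, in opposite directions. For Aldoc it was 0.341 and 0.789. Aldoc was at 7.40 and 1.19 normalised CPM in WT SkM 1 and 2 and at 2.52, 0.939 and 1.59 in E0del/+ SkM 1 to 3. Fbp2, Pgam2, Aldoc and Pygl were singled out after their values were seen. The median ratio of E0del/+ to WT over the members was 0.994 in batch 1 and 0.831 in batch 2, beside 0.999 and 0.992 over all genes. In batch 2, slow fibre markers summed to 139.7 normalised CPM in WT SkM 2 and 2418 in E0del/+ SkM 2, and Xist was at 0.476 and 357. In batch 1 the marker sums were 1154 and 1669, and Xist was at 448 and 426. Genotype cannot be told apart from either within batch 2. Batch 3 holds an E0del/+ mouse only and gives no ratio. The difference of the genotype effect between the tissues, tested over all 10 libraries with the mouse as a block, was called for 0 of 14327 genes (0%) and 0 of 38 members by edgeR, with 238 genes (1.66%) and 0 members at an unadjusted p under 0.05, and DESeq2's Wald test called 0 members.

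**Figure D5:**
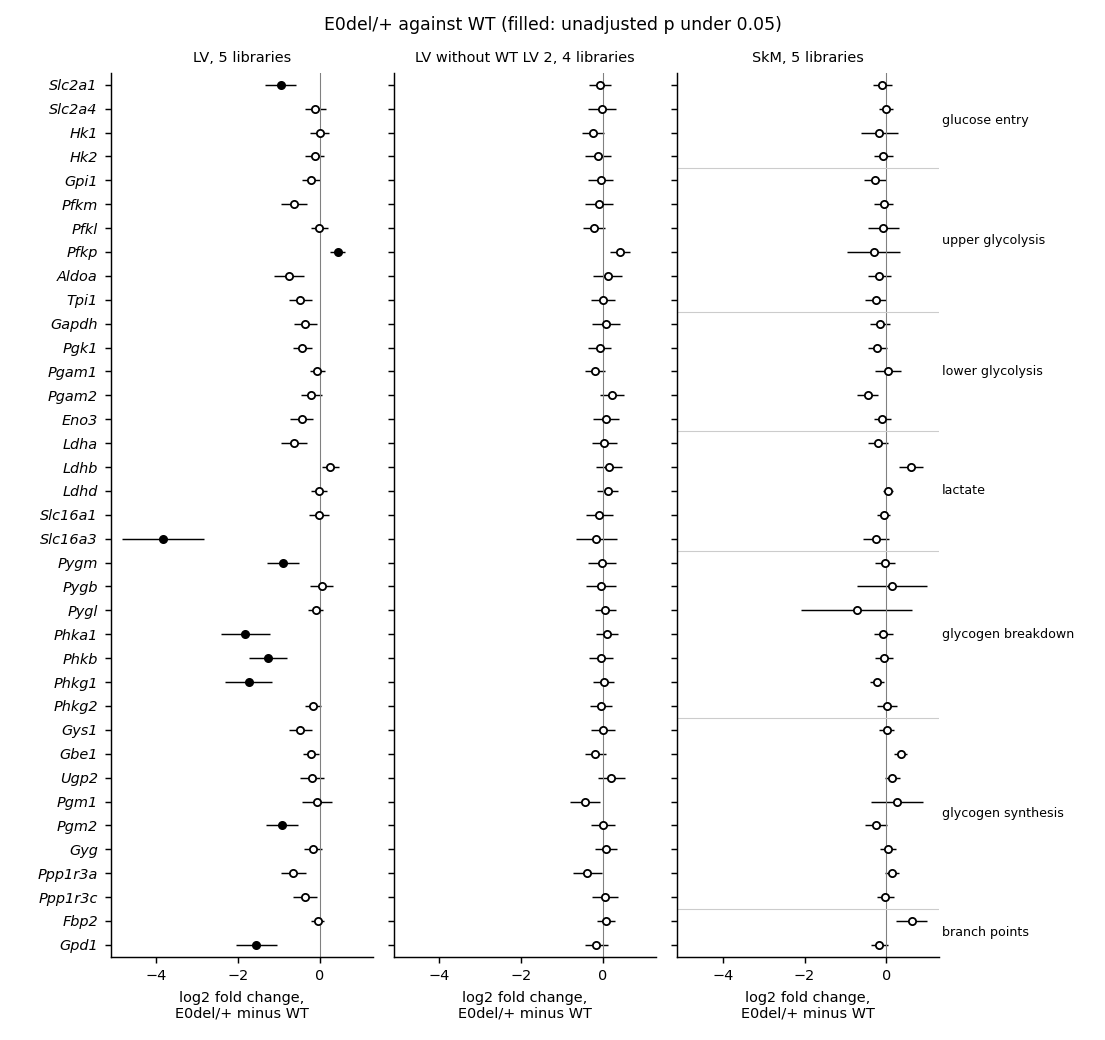
Log2 fold change of E0del/+ minus WT from edgeR, for LV with and without WT LV 2 and for SkM. Standard errors were derived from edgeR's test statistic. Filled points have an unadjusted p under 0.05. Slc16a3 moves from -3.82 in LV to -0.17 without WT LV 2.

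Other genes of these pathways were listed as well, beside the members. Of 51 further genes of glycolysis and pyruvate metabolism, 45 were tested between LV and SkM, with 13 higher in LV and 16 higher in SkM, 7 and 15 of them with an absolute log2 fold change of at least 1. Of 30 genes of glycogen and gluconeogenesis, 26 were tested, with 4 higher in LV and 17 higher in SkM, 3 and 12 of them with that fold. Of all genes tested, 31.5% were called higher in LV and 29.8% higher in SkM, 20.4% and 13.9% with that fold. The median log2 fold changes were 0.13 and -0.93, beside 0.02 over all genes. Among the most abundant of the strongly called genes, Pkm, the muscle pyruvate kinase (listed as Pkm2), was at 1181 in WT LV 1, 1181, 899 and 1354 in E0del/+ LV 1 to 3 and 2190.3 in WT LV 2, against 4958 and 9047 in WT SkM 1 and 2 and 4666, 5354 and 6947 in E0del/+ SkM 1 to 3. Every SkM library lay above every LV library, with a log2 fold change of -2.29. Also higher in SkM were Txnip (-1.22), the lysosomal glucosidase Gaa (-1.01) and the aspartate-glutamate carrier Slc25a12 (-1.53). In the LV direction were Mdh1, the cytosolic malate dehydrogenase (1.54), Pfkfb2, the heart enzyme that makes the activator of phosphofructokinase (2.47), Pgm5 (2.75), the carrier Slc25a13 (6.39) and Ppp1r3b (2.92). Slc25a12 and Slc25a13, isoforms of the same carrier, differed in opposite directions, and Slc25a13 was at 123 in WT LV 1, 129.97, 86.6 and 160.4 in E0del/+ LV 1 to 3 and 113 in WT LV 2, against 2.36 and 0.238 in WT SkM 1 and 2 and 2.09, 0.939 and 0.353 in E0del/+ SkM 1 to 3.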

How the data were processed

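The 10 libraries were grouped by the genotype and tissue of their labels. The authors deposited for each library a raw count per gene and an RPKM value, with exon positions of mm10 and the summed exon length. The deposited RPKM equals the count per kb of exon, scaled to the library's total, within a relative deviation of 2.7e-14 and was not used further. The submitters' processing notes name STAR, DESeq2 and mm10, and the counting program is not given in the sources used here. Total counts were 11010021 to 17484873. The raw counts were tested with edgeR 4.0.16 in R 4.3.3 (filterByExpr, TMM factors, glmQLFit and glmQLFTest, Benjamini-Hochberg over all genes tested), and with DESeq2 1.42.0 as an alternative. The SE of an edgeR fold change is the absolute log2 fold change divided by the square root of the test's F statistic. It is not a spread over mice. Displayed values are CPM with TMM factors over all 10 libraries. Values per kb use the summed exon length. The steps were tested on simulated data. Same-group libraries differed beyond sampling noise (mean chi-square per gene 12.8 to 100.0).

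The tissues of a mouse were paired because the library names give the same animal. Deviations from group means correlated across genes by -0.114 to 0.116 between the tissues of a mouse, and between the mice of a batch by 0.036 and -0.142 in LV and 0.49 and 0.309 in SkM. The labels name the batch, which equals the replicate number. The members and lists were chosen with earlier results of these data known. Named genes were all members, with values in every library for the 13 isoform pairs, and up to 6 genes per direction with the highest mean level among the strongly called genes of 2 further pathway lists, some of which are not reported here. The marker lists covered fast fibres (10 of 10 higher in SkM), slow fibres (3 of 5 in SkM, 1 in LV), ventricle (10 of 10 in LV), adipocytes (6 of 7 in SkM), endothelium (5 of 5 in LV), leukocytes (4 of 5 in LV) and blood (4 of 5 matched, 2 tested, 0 called). Isoform ratios and shares were tested by exact permutation of signs in Python 3.11.15. Alternatives were DESeq2's size factors, total counts without TMM, DESeq2's test, other filters, the replicate block added or removed, WT mouse 2 added, TMM without the members, 1 count added for ratios, and each replicate left out. Promoter sequences are from RefSeq (GRCm38.p6), and the transcripts of GENCODE M21 were searched for stretches of 50 bases shared between genes.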

Additional observations from a re-analysis of the deposited data

Results flagged for a closer look

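Of 50 results tested over the 5 libraries of LV, 19 had 1 library far from the other 4 by Dixon's ratio, and 17 of these were WT LV 2. Of 50 tested in SkM, 1 had such a library. Chance gives such a library in about 1 in 20 groups, but genes and ratios from the same 5 libraries are not independent. WT LV 2 had also been set apart beforehand, so these counts are no test against that rate. In WT LV 2, the normalised CPM stood out for Aldoa at 8390.5, Pygm at 3659, Eno3 at 2204, Ldha at 1512, Pgm2 at 611, Phka1 at 472, Gpd1 at 259, Phkb at 249.6, Phkg1 at 155, Slc16a3 at 63.4, Slc2a1 at 54.3 and Aldoc at 6.69, each above the other 4 LVs. The log2 isoform ratios that stood out there were 3.07 for Slc2a4 over Slc2a1, which was low, and 4.02 for Pfkm over Pfkl, -0.13 for Ldha over Ldhb, 2.65 for Pygm over Pygb and 7.90 for Pygm over Pygl, which were high. In E0del/+ LV 2, Hk2 at 374 and Gbe1 at 33.4 normalised CPM were far below the other LVs. In SkM, Aldoc stood out in WT SkM 1, at 7.40 normalised CPM.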

How the results depend on the processing

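Between LV and SkM, 33 to 36 members were called over all alternatives, and 31 of the 38 kept their direction and their side of the threshold in each. The other 7 were Slc2a1, Slc2a4, Hk2, Aldoc, Ldhd, Phkg2 and Gbe1. Of all genes, 31.5% were called higher in LV and 29.8% higher in SkM in the main fit. These shares were 26.7% and 24.9% without E0del/+ replicate 1, and 57.5% and 12.7% with total counts without TMM. With total counts without TMM, Hk2 turned to 0.42 and Ldhd to 0.28, both called higher in LV there. Removing the replicate block left 36 members called. Of 66 values of isoform ratios under alternatives, 0 turned. The share of counts in the members differed by -5.14 to -4.79 percentage points with a mouse left out, and by -2.81 without the 10 most abundant genes. For E0del/+ against WT in LV, DESeq2's Wald test called 12 genes and the replicate block 5. With 1 library left out, 0 to 578 genes and 0 to 9 members were called, and 0 to 17 members had an unadjusted p under 0.05: 17 without WT LV 1, 8 without E0del/+ LV 3, 5 without E0del/+ LV 1, 2 without E0del/+ LV 2 and 0 without WT LV 2. The 578 and 9 were without WT LV 1. Without WT LV 2, Phka1 turned to 0.0982, Phkg1 to 0.0117 and Pgm2 to 0.00728, and without WT LV 1 they were at -2.61, -2.50 and -1.48. In the fit without WT LV 1, the only WT library was WT LV 2, which held fast fibre transcripts. In SkM, the replicate block gave 1 gene called and 3 members with an unadjusted p under 0.05, and 3 members had such a p without E0del/+ SkM 3. Counts without a WT SkM library, which left 1, were highest without WT SkM 1 and are not given. For the difference between tissues, 4 members had an unadjusted p under 0.05 in DESeq2's Wald test, 1 with no filter, 1 with no replicate block and 2 without WT mouse 2. With 1 replicate left out, 0 to 155 genes and 0 to 1 members were called and 0 to 9 members had such a p, all the highest values without WT replicate 1. Where 1 WT library was left, it was assumed to vary like the other group. The replicate block changed no other call of a member. The cause of these changes was not tested. For the genotype fits first listed in this section, the share of all genes at the same threshold is not given beside the member counts. These counts therefore cannot tell a change of the members from a shift of all genes. Counts of Aldoc, Pgam1, Phkg2 and the row listed as Pgm1 were low, which limits their precision.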

Other observations

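Genes outside the 39 with the same activities were looked at after their values were seen. Slc2a3, which encodes the glucose transporter GLUT3, was at 1.75 in WT LV 1, 2.96, 2.14 and 2.18 in E0del/+ LV 1 to 3 and 9.17 in WT LV 2, against 5.69 and 27.5 in WT SkM 1 and 2 and 9.74, 4.70 and 29.3 in E0del/+ SkM 1 to 3, in normalised CPM. It was highest in WT SkM 2 and E0del/+ SkM 3, the SkM libraries with low slow fibre markers and Xist under 1. Eno2, the neuronal enolase, was at 1.63 in WT LV 1, 1.48, 2.91 and 0.751 in E0del/+ LV 1 to 3 and 7.85 in WT LV 2, against 0.976 and 0.555 in WT SkM 1 and 2 and 1.37, 0.939 and 0.529 in E0del/+ SkM 1 to 3. Gm5506, the row of the Eno1 copy Eno1b, was at 10.2 in WT LV 1, 9.31, 10.8 and 8.41 in E0del/+ LV 1 to 3 and 30.8 in WT LV 2, against 12.0 and 10.8 in WT SkM 1 and 2 and 6.35, 6.06 and 11.2 in E0del/+ SkM 1 to 3. Both enolase rows were highest in WT LV 2, as Slc2a1 was, and above all SkM libraries, which sets them apart from the genes that moved part of the way to SkM there. These values were not tested between groups of libraries defined from the data.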
